A study of Mus musculus with 2 samples.

Results

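Expression of genes for potassium channels, transient receptor potential (TRP) channels, chloride channels and the voltage-gated proton channel was read in 2 pools of mouse myeloid cells. The members were all gene names on the array that start with Kcn followed by a letter, with Trpa, Trpc, Trpm or Trpv followed by a digit, with Clcn, or with Clic followed by a digit, plus Hvcn1. This gave 133 of the 27238 named genes on the array, read by 188 probes. Of these names 2 stand for no channel, the non-coding RNA Kcnq1ot1 and the TRPC4-associated protein gene Trpc4ap. The colon pool held CX3CR1high CD11b+ CD11c+ cells of the large intestinal lamina propria, a layer of connective tissue below the lining epithelium. They came from CX3CR1gfp/+ mice, in which green fluorescent protein replaces 1 allele of the fractalkine receptor gene. The blood pool held Ly6c+ CD11b+ monocytes of C57BL/6J mice. The labels give no age, and the design text gives n = 10 and n = 6 without saying what they count. Each of 2 two-colour arrays carried both pools, the colon pool in the red dye Cy5 on array 1 and in the green dye Cy3 on array 2. Since both arrays read the same pools, they were treated as 1 replicate. No test was possible, and every SD is between the 2 arrays and covers technical error alone.

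Tissue, strain, isolation procedure and cell type differed together between the pools and cannot be told apart. All 7 macrophage markers read (Adgre1, Mrc1, C1qa, C1qb, Cd163, Mertk and Ms4a7) were at least 2-fold higher in the colon pool on both arrays, and all 5 monocyte markers (Ly6c1, Ccr2, Plac8 and Chil3 among them) were at least 2-fold lower. Markers of cells outside the sort were also higher in the colon pool. They were 5 of 5 for fibroblasts, 5 of 6 for smooth muscle and pericytes, 4 of 6 for epithelium and 2 of 4 for endothelium. Also higher were 2 of 4 for T cells, 3 of 4 for B and plasma cells and 3 of 4 for interstitial cells of Cajal and mast cells. Of the platelet markers 1 of 3 was higher and 2 were lower, and of the neutrophil markers 2 of 5 were lower. Of 3 enteroendocrine markers and 7 of enteric neurons and glia 0 were called. The part of such cells in the values below was not tested. In pools of this kind, fewer cells of a type and less RNA per cell cannot be told apart.

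Ion channels set the membrane potential of a macrophage and the ionic balance of its compartments. Potassium channels let potassium leave the cell, which makes the inside more negative and favours calcium entry, and potassium loss is a known trigger of the NLRP3 inflammasome. TRP channels are mostly non-selective cation channels gated by temperature, stretch, lipids or calcium. CLC proteins are chloride channels at the surface or chloride/proton exchangers of endosomes and lysosomes, and Hvcn1 lets protons out while the NADPH oxidase moves electrons into the phagosome.

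The measured quantity was the light bound by 60-base probes, whose identity decides which transcript stretch was read. The first 30 bases of the probes of genes named below are printed as the scanner file gives them, 5′ to 3′. The brightest probe gave each gene's value. In the lines for Hvcn1 and Clcn5 the capitals mark bases that lie in the longest run shared by both probes of the gene (38 bases for Hvcn1 and 48 for Clcn5), so these pairs are not independent readings.
Kcnj10: gaaacagaagaatctagggatgatttctct
Clic4, brightest probe: taacattagctttcgtagcagtttatacca
Clic4, other probe: tgctccgcctcctaaagtagaagtgtattt
Hvcn1, brightest probe: AAATAACCTTTCATTCCAAGTAATAAACCT
Hvcn1, other probe: aaaggaactgaaatctagagagAAATAACC
Trpv4: gacctgccacagatctgacctgctgcagcc
Kcnip3: tggttcctgtctcagcgcccaccaatattc
Kcnk13: caacaaacattccagagtgtctctgggcct
Kcnn4: gccacatagctccacatgaactcacagaag
Clcn5, brightest probe: cttctGTGATACTGCATTAGGAAGGGTTCA
Clcn5, other probe: GTGATACTGCATTAGGAAGGGTTCACGAAA
Kcne3: gaactcaactcaaccatatcaagccacagt

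Most channel genes were not measured in either pool. A gene was taken as measured when at least 1 of its probes was well above background in the same pool on both arrays, as flagged by the scanner's software. This held for 52 of 133 members (39.1%), against 57.6% of all named genes. Of the other 81 members, 23 had a probe that passed the flag at least once without meeting this rule, and 58 had none. Of the 52, 34 were measured in both pools (65.4%, against 84.8% of all genes measured), 16 in the colon pool alone (30.8%, against 11.4%) and 2, Kcnab2 and Kcnk12, in the blood pool alone (3.85%, against 3.79%). By pool and dye, 52.9% to 59.6% of spots passed this flag.

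The families differed in how many members were seen. Of 40 voltage-gated potassium channel genes 12 were measured, among them Kcna1, Kcna3, Kcna4, Kcna6, Kcna7, Kcnd1, Kcnd3, Kcnh3, Kcnh4, Kcnq1 and Kcns3. Of 15 inward rectifier genes 4 were measured, of 14 two-pore channel genes 6, of 8 calcium- or sodium-activated channel genes 2, and of 17 auxiliary subunit and related genes 7. Among the TRP channels 9 of 22 were measured, with 5 of 8 TRPM genes, 2 of 7 TRPC genes and 2 of 6 TRPV genes. Trpa1 was not well above background. Of the CLC genes 6 of 9 were measured, all in both pools. Clcn1, known from muscle, was not well above background. Of the CLIC genes, Clic1, Clic4 and Clic5 were measured and Clic3 and Clic6 were not. Members not measured in either pool included the large-conductance channel gene Kcnma1, the ATP-sensitive channel genes Kcnj8 and Kcnj11, the heat-gated channel gene Trpv1 and Trpc6. Of these, Kcnj8 passed the flag in the colon pool on array 1 alone and Trpc6 in that pool on array 2 alone.

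**Figure D1:**
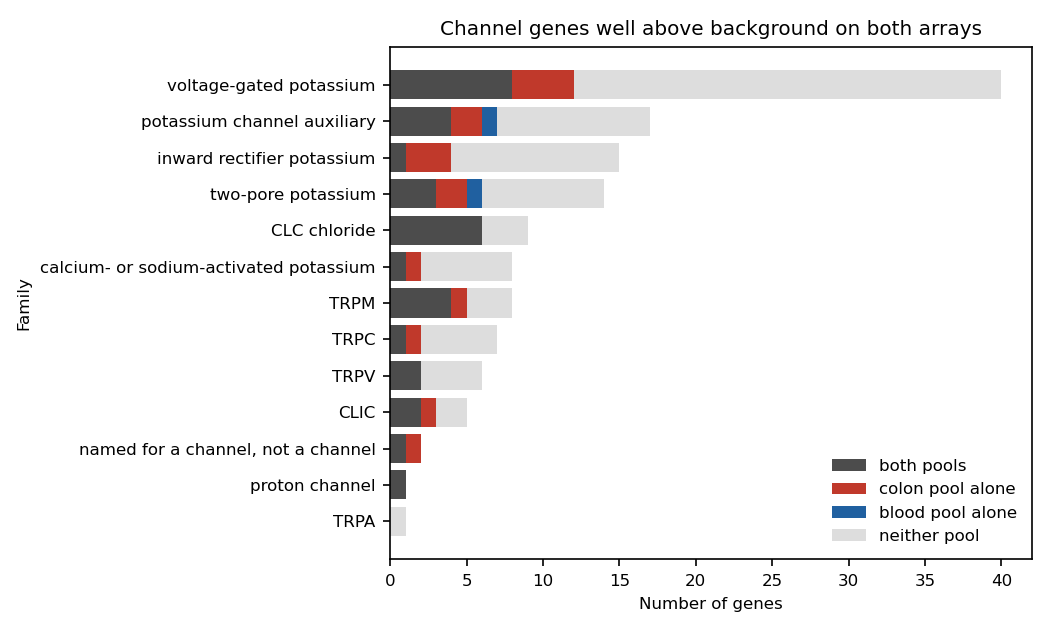
Number of channel genes in each family (horizontal axis) whose signal was well above background on both arrays in both pools, in the colon pool alone, in the blood pool alone or in neither. All 6 measured CLC genes were seen in both pools, whereas 28 of 40 voltage-gated potassium channel genes were seen in neither.

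The limit for a call was a 2-fold ratio of colon over blood, reached on array 1 and on array 2 with the same sign. The brighter pool also had to pass the background flag on both. That the signals of the 2 pools lie apart in a called gene follows from this rule and adds no evidence. By this rule 8 of the 52 measured members were higher in the colon pool (15.4%) and 1 was lower (1.92%). Of all 15677 measured genes, 14.2% were higher, 4.46% were lower and 18.6% were called in either direction, so with this processing the channel genes were called higher at about the background rate, and the single lower member is too few to set against its own. The 8 higher members were Kcnj10, Clic4, Hvcn1, Trpv4, Kcnip3, Kcnk13, Kcnn4 and Clcn5, and the lower one was Kcne3. The median log2 ratio was 0.32 over the measured members and 0.06 over all measured genes. With the scanner software's own ratios, which add no offset, 20 members were called higher (38.5%, against 20.2% of all measured genes) and 3 lower (5.77%, against 13.3%). The share of members called higher thus lay near that of all genes in the one setting and above it in the other. The 12 members added on the higher side were all measured in the colon pool alone. Of all calls among all genes 60.4% were then higher, against 76.1% with the setting used. When arrays were centred on their median without a loess fit, 5 members were higher (9.62%, against 7.26% of all measured genes) and 1 was lower (1.92%, against 3.56%), with 67.1% of all calls higher. The median of all measured genes moved to -0.12 and -0.28 under these scalings, and that of the members was 0.59 and 0.14. With the scaling used, the share called higher also depended on the limits. It was 23.1% of members against 22.3% of all measured genes at 1.5-fold, and 9.62% against 6.09% at 4-fold. At 2-fold it was 20.6% against 12.9% when both pools had to pass the flag, and 6.02% against 8.17% without a filter on dim probes.

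**Figure D2:**
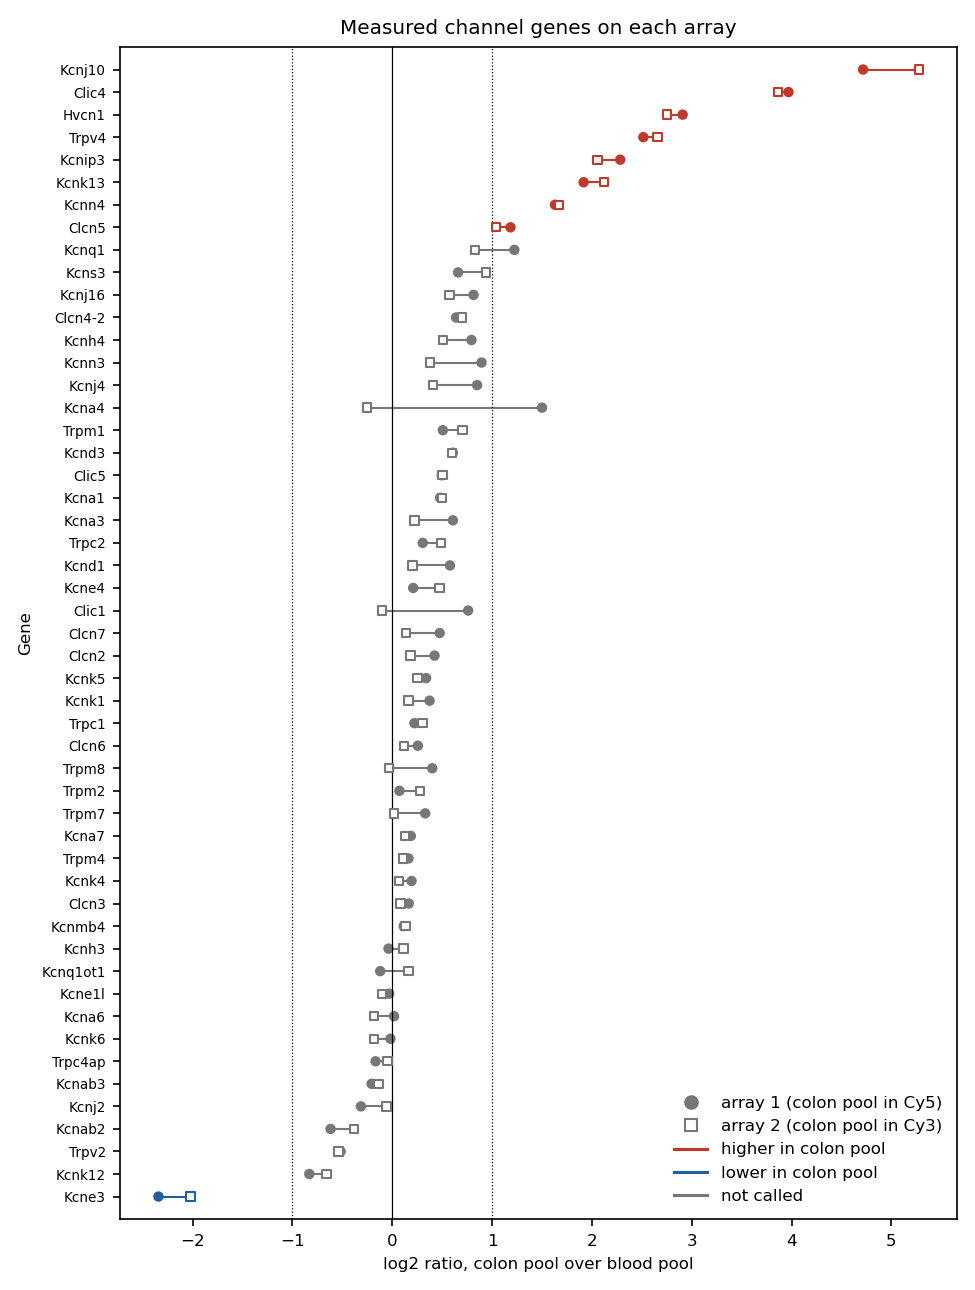
Colon over blood log2 ratio (horizontal axis) of the measured members reported here on array 1 (filled circles) and array 2 (open squares), ordered by their mean. Dotted lines mark 2-fold. The 8 genes in red lie beyond 1 on both arrays and Kcne3 in blue lies below -1 on both, while Kcna4 has the longest line and lies at -0.25 on array 2.

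Among the pore-forming potassium channels the difference was largest for Kcnj10, which encodes the inward rectifier Kir4.1, best known from glia. Its normalized log2 signal was 11.13 and 11.04 in the colon pool (arrays 1 and 2) and 6.41 and 5.76 in the blood pool. The spot read 2732 and 1193 intensity units for the colon pool and 59.3 and 67.9 for the blood pool, before background correction. The colon values were far above the blood values on both arrays. The log2 ratio was 5.00 ± 0.40. Since the blood pool was well above background on array 2 alone, its size is uncertain. It rested on 1 probe (chromosome 1, 174304062 to 174304121, mouse build mm9). The software's ratio, which adds no offset, was 7.07. Of 7 markers of enteric neurons and glia in the same comparison, 5 were measured and 0 were called. The glial gene S100b read 0.81, with the blood pool well above background on array 1 alone. The glial gene Sox10 read -0.02 and was only just above background (colon 6.41 and 6.45, blood 6.36 and 6.53). The neuronal gene Elavl4 read 1.44 and -0.43 on the arrays. The part of glial RNA in the Kcnj10 value was not tested. The neuronal gene Uchl1 was not well above background.

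Kcnk13 encodes THIK-1, a two-pore background potassium channel that is also known from microglia, the macrophages of the brain. Its log2 signal was 9.42 and 9.44 in the colon pool and 7.50 and 7.32 in the blood pool. The ratio was 2.02 ± 0.14 (4.05-fold; chromosome 12, 101300491 to 101300550). Under median centring it was 1.58 ± 0.86 and no longer passed on each array.

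Kcnn4 encodes KCa3.1, the calcium-activated potassium channel of lymphocytes, red cells and macrophages. The colon signal was 9.98 and 9.99 and the blood signal 8.35 and 8.31. The arrays differed little, with a ratio of 1.65 ± 0.03 (3.14-fold). Its probe spans 599 bases of chromosome 7 (25169184 to 25169782), more than its own length, so it crosses a gap in the genome. The call was lost under median centring (1.09 ± 1.13).

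Auxiliary subunits went both ways. Kcnip3 encodes DREAM, a calcium-binding protein that associates with Kv4 channels and can also act in the nucleus as a transcriptional repressor. The colon pool read 9.41 and 9.03 and the blood pool 7.13 and 6.98, a ratio of 2.17 ± 0.16 (4.50-fold; chromosome 2, 127282242 to 127282301). A second probe toward the start of the transcript was not well above background in either pool, and the mean over both probes was 1.04, which ended the call. Of the Kv4 pore genes themselves, Kcnd1 read 0.39 ± 0.27, Kcnd3 was measured in the colon pool alone, and Kcnd2 was not measured.

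Kcne3, whose product MiRP2 is a small membrane subunit that keeps KCNQ1 channels open in intestinal epithelium, was the member with the lowest ratio. It read 6.96 and 7.27 in the colon pool and 9.30 and 9.29 in the blood pool. Here the blood values were the higher ones on both arrays. The ratio was -2.18 ± 0.23 (4.53-fold lower; chromosome 7, 107333062 to 107333121). A second, separate probe read -1.90 ± 0.25. The software's ratio was -3.61. Kcnq1, the pore gene that Kcne3 partners, was not called. It read 1.22 on array 1 and 0.83 on array 2 and was well above background in the colon pool alone. In the mean of both arrays it was at least 1.92-fold higher there, while array 2 alone lay below that. Of the epithelial markers, Krt8 (4.01) and Krt19 (at least 8.89-fold, blood pool not well above background) were higher in the colon pool, while Epcam and Cdh1 were not called, and the part of epithelial RNA in these values was not tested. Of the other auxiliary genes, Kcne1l (-0.07) and Kcnab3 (-0.17) were measured in both pools and not called. With the software's ratios Kcnab3 read -0.99, also without a call. Kcne4 (0.34), Kcnmb4 (0.12) and Kcnab2 (-0.50) were measured in 1 pool alone, so the sizes of these ratios are uncertain, and the software's ratios were 2.60 for Kcne4 and -1.99 for Kcnab2.

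**Figure D3:**
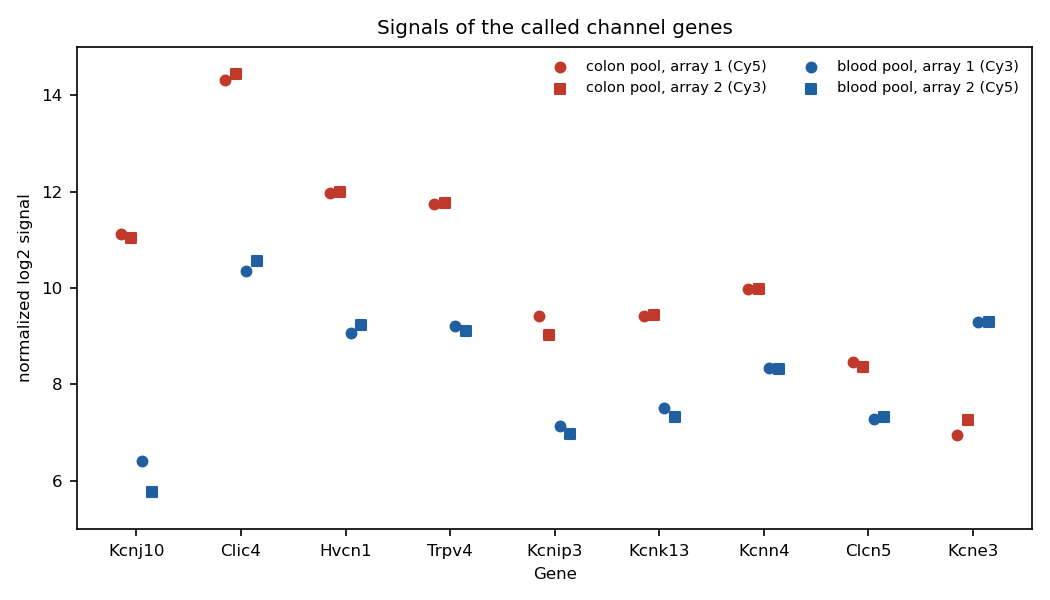
Normalized log2 signal (vertical axis) of the 9 called members in the colon pool (red) and the blood pool (blue) on array 1 (circles) and array 2 (squares). Values are to be compared within a gene only, since probes differ in brightness. The colon points lie above the blood points for 8 genes and below them for Kcne3, which follows from the rule for a call.

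Hvcn1 encodes the voltage-gated proton channel, a small protein with a voltage sensor and no separate pore domain. The log2 signal was 11.97 and 11.99 in the colon pool and 9.06 and 9.23 in the blood pool. The ratio was 2.83 ± 0.11 (7.12-fold; chromosome 5, 122692242 to 122692301). The second probe, which overlaps the first as printed above, read 2.56 ± 0.01. The call held under every processing alternative tried, with values from 2.16 (median centring) to 2.93.

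Trpv4, the cation channel gated by cell swelling, warmth and lipid mediators, was the only one of the 22 TRPA, TRPC, TRPM and TRPV genes called. The colon pool read 11.74 and 11.77 and the blood pool 9.22 and 9.11, well apart on both arrays. The ratio was 2.59 ± 0.10 (6.00-fold; chromosome 5, 115072208 to 115072267). A dimmer second probe without sequence overlap read 1.64 ± 0.24 and also passed 2-fold on each array. Trpv2, the other TRPV gene measured, read -0.53 ± 0.02, with 10.97 on both arrays in the colon pool and 11.48 and 11.51 in the blood pool. It was bright in both pools and lower in the colon pool on each array by less than the 2-fold limit, and its mean under median centring was -1.23.

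Of the TRPM genes measured in both pools, Trpm7, Trpm2 and Trpm4 differed little. Trpm7, a channel fused to a kinase and permeable to magnesium, read 0.17 ± 0.22. Trpm2, a calcium-permeable channel opened by ADP-ribose during oxidative stress, read 0.17 ± 0.14, and Trpm4, the calcium-activated sodium channel, read 0.14 ± 0.04. Their means changed sign under other scalings (-0.48 for Trpm7 under median centring, and -0.17 and -0.13 for Trpm2 and Trpm4 with the software's ratios), so no direction is given. Trpm1 read 0.61 ± 0.14 and Trpm8 0.19 ± 0.30. With the software's ratios they read 1.16 and 1.02, also without a call. Of the TRPC genes, Trpc2 read 0.40 ± 0.13 and Trpc1 was seen in the colon pool alone. Trpc4ap, which encodes a ubiquitin ligase adaptor, was bright in both pools at -0.11 ± 0.08, and read -0.87 under median centring.

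Of the CLIC genes, whose products exist in soluble and membrane forms, Clic4 was among the highest members. The colon pool read 14.31 and 14.43 and the blood pool 10.34 and 10.57, a ratio of 3.92 ± 0.08 (15.1-fold; chromosome 4, 134770416 to 134770475). This probe was printed 10 times on each array, and its spots ranged from 3.94 to 4.00 on array 1 and from 3.82 to 3.89 on array 2. The spread between spots was thus smaller than the gap between arrays. A much dimmer probe nearer the start of the transcript read 1.88 ± 0.07, so the direction held but the size differed 2.03 on the log2 scale between the probes. Clic1, bright in both pools, read 0.76 and -0.10 on the arrays, with no common direction. Clic5 was measured in the colon pool alone and was at least 1.41-fold higher there.

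The CLC genes split between 1 call and 5 small ratios. Clcn5, the chloride/proton exchanger of endosomes whose loss causes Dent disease, read 8.47 and 8.37 in the colon pool and 7.28 and 7.33 in the blood pool. The ratio of 1.11 ± 0.10 (2.16-fold; chromosome X, 6736600 to 6736659) was the closest of all calls to the limit, with 1.04 on the lower array, and was lost under median centring (0.78 ± 0.96). Clcn4-2, now Clcn4, its near relative, read 0.67 ± 0.04 from bright signals in both pools, under the limit, but -0.08 under median centring. Clcn7, the lysosomal exchanger needed by osteoclasts, read 0.31 ± 0.24, Clcn2 0.30 ± 0.17, Clcn6 0.19 ± 0.10 and Clcn3 0.12 ± 0.06. Under median centring Clcn7 read -0.31 and Clcn3 -0.55, so no direction is given for them. Ostm1, the partner subunit of Clcn7, read -0.67, also without a call.

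The remaining potassium channel genes seen in both pools were not called. The two-pore channel gene Kcnk6 read -0.10 ± 0.12 from clear signals in both pools (colon 10.63 on both arrays, blood 10.65 and 10.82), and Kcnk4 read 0.13 ± 0.09. The Kv1 genes Kcna3, known for the potassium current of T cells and macrophages, Kcna6 and Kcna7 read 0.42 ± 0.27, -0.08 ± 0.14 and 0.16 ± 0.04. Kcnj2, which encodes the inward rectifier Kir2.1 of macrophages, read -0.19 ± 0.18, and was only just above background in both pools (colon 6.30 and 6.56, blood 6.61 and 6.62). Kcnh4 and Kcnh3 read 0.65 ± 0.20 and 0.04 ± 0.11. The sign turned for Kcnd1 under median centring (-0.12) and for Kcna7 (-0.19), Kcnk4 (-0.30) and Kcnh3 (-0.39) with the software's ratios.

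Where a member was well above background in 1 pool and on neither array in the other, its difference is given as a lower bound. The bound is for the mean of both arrays and makes no allowance for their spread. A single array can therefore lie below it. This was so for every gene given a bound below except Kcna1 and Kcnk12. The bound sets the mean signal of the brighter pool against the higher of the dim probe's own signal and the lowest signal of any probe well above background in that dye. For Kcns3, Kcnj4, Kcnd3, Clic5, Kcne4, Kcnk5, Kcnk1 and Trpc1 the dim probe's own signal was the higher, so the bound is the measured ratio. The highest bounds for the colon pool were those of Kcnq1 (at least 1.92-fold higher), Kcns3 (at least 1.74-fold), Kcnj16 (at least 1.59-fold), Kcnj4 (at least 1.55-fold), Kcnn3 (at least 1.54-fold) and Kcnd3 (at least 1.52-fold). For Kcnq1ot1, which read lower in the colon pool on array 1 (-0.12) and higher on array 2 (0.16), no direction is given. Clic5, Kcna1, Kcne4, Kcnk5, Kcnk1 and Trpc1 lay between 1.20-fold and 1.41-fold. For the blood pool the bounds were at least 1.56-fold for the two-pore gene Kcnk12 and at least 1.41-fold for the beta subunit gene Kcnab2. The measured log2 ratios of these genes, which the dim pool leaves uncertain, were 1.03 for Kcnq1, 0.80 for Kcns3, 0.69 for Kcnj16, 0.64 for Kcnn3, 0.63 for Kcnj4, 0.60 for Kcnd3, 0.50 for Clic5, 0.49 for Kcna1, 0.30 for Kcnk5, 0.27 for Kcnk1, 0.26 for Trpc1, 0.02 for Kcnq1ot1 and -0.74 for Kcnk12. All bounds were under the 2-fold limit, and these genes have signals close to the detection limit. The added offset of 50 compresses such ratios. The software's ratios, without that offset, were 4.12 for Kcnq1, 3.81 for Kcns3, 3.60 for Kcnj16 and -3.90 for Kcnk12. The size of these differences therefore cannot be fixed from the arrays. Kcnj10, Kcnmb4 and Trpm8 were also measured in the colon pool alone, but the blood pool passed on array 2, so no bound was set.

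For most members the arrays differed little. The SD between arrays had a median of 0.13 over the 52 members, against 0.10 over all measured genes, and was under 0.2 for 39 members. The added offset compresses the ratios of dim members, so a small SD says little for them. For 6 members the sign differed between arrays. The gap was widest for the Kv1.4 gene Kcna4, which was bright in all 4 readings (colon 14.52 and 13.73, blood 13.02 and 13.98) and higher in whichever pool carried Cy5. Its ratio was -0.25 on array 2 and 1.75 above that on array 1, and the mean of 0.62 ± 1.24 gives no direction. A gap over 1.5 between arrays was seen for 88 of the 15677 measured genes, and in 87 of them array 1 was the higher.

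Near the limit, the ratio on the array closer to 0 was 1.04 for Clcn5, 1.63 for Kcnn4 and 1.92 for Kcnk13 just inside it, and 0.83 for Kcnq1, 0.66 for Kcns3 and 0.64 for Clcn4-2 just outside. Among lower ratios Kcne3 stood inside at -2.02, and Kcnk12 at -0.66, Trpv2 at -0.52 and Kcnab2 at -0.38 stood outside.

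**Figure D4:**
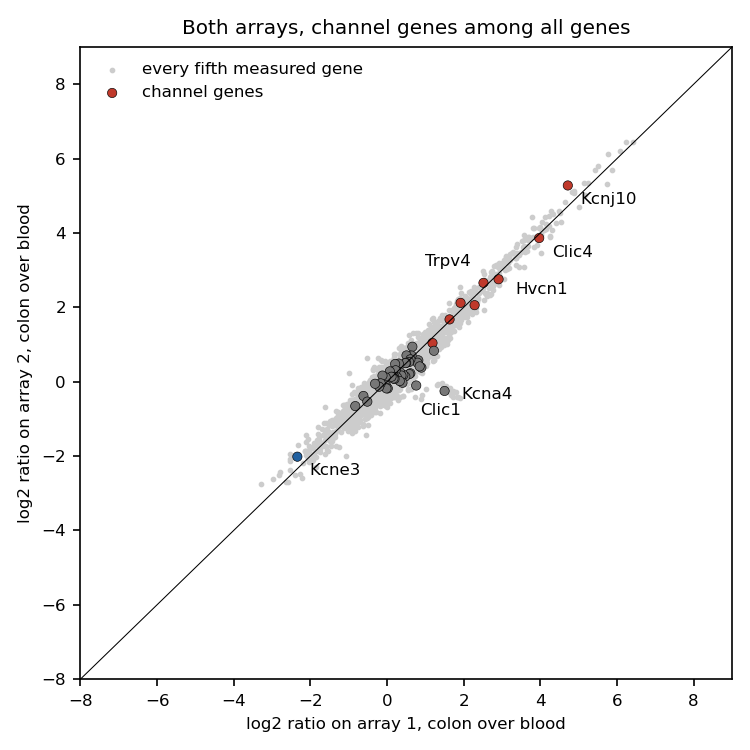
Colon over blood log2 ratio on array 1 (horizontal axis) and array 2 (vertical axis) for the 52 measured members (large points, red for higher, blue for lower, dark grey for not called) and a regularly spaced sample of all measured genes (light grey). The 9 called members lie near the line of equal ratios, and Kcna4 and Clic1 lie below it.

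Other genes of ion transport, listed beside the members for comparison, were also called. Of 45 such genes 38 were measured, with a median of 0.30. In the colon pool 9 were higher (23.7%, against 14.2% of all measured genes) and 1 was lower (against 4.46% of all measured genes). The list was chosen with earlier results of these data known, so no excess over all genes can be read from these shares. The highest was Mcoln2, an endolysosomal TRPML channel gene outside the naming rule (4.44 in the mean). Ttyh2 (3.17 ± 0.08), which encodes a tweety family membrane protein, Ano1, a calcium-activated chloride channel gene (at least 5.21-fold, blood pool not well above background), and Atp1b1, a sodium pump subunit gene (2.31 ± 0.12, blood pool well above background on array 2 alone), were also higher. Ano1 was also among the markers of interstitial cells of Cajal and mast cells counted above. The part of such cells in its value was not tested. Orai1, the pore of store-operated calcium entry, was lower in the colon pool (-1.13), and 0 of the 5 Orai and Stim genes were higher. Under median centring 4 of these 38 genes were called higher and 0 lower, so the call of Orai1 was lost.

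**Figure D5:**
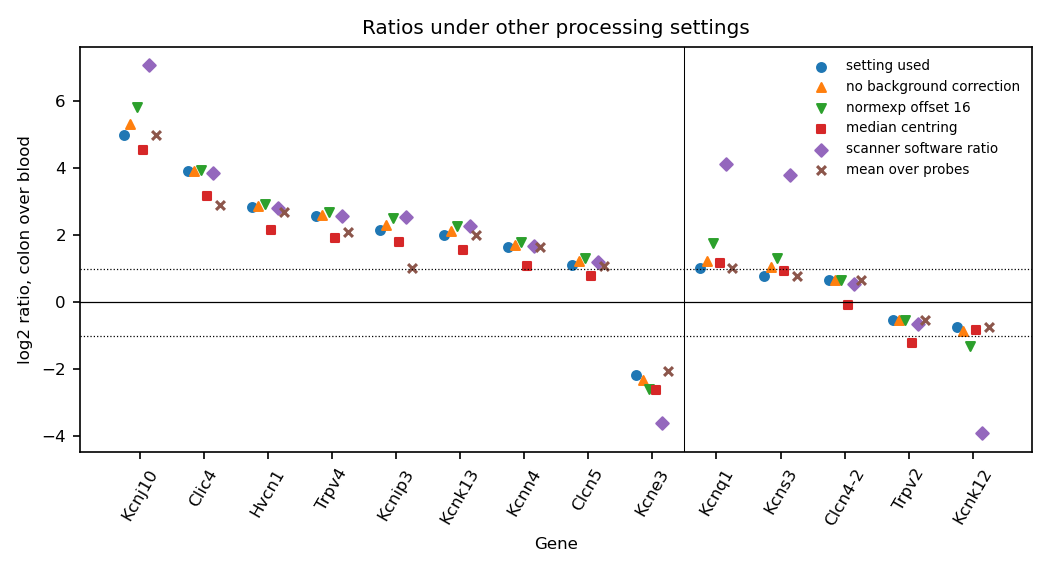
The log2 ratio (vertical axis) of the 9 called members and, right of the line, of 5 members near the limit under the setting used and 5 alternatives. Dotted lines mark 2-fold. The sign of the 9 called members was the same in all 6, whereas the ratios of Kcnq1, Kcns3 and Kcnk12 moved most with the software's ratio.

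Promoter windows were read for the called members, to set the member with the highest ratio beside the only lower one. RefSeq (GRCm38.p6) held windows for 8 of the 9 called genes, 12 windows in all. The 250 bases before the start are printed with matches of CCAAT (either strand) in capitals. This motif lay in 33.8% of all 32851 windows of that length. Searched on both strands, the AP-1 motif TGAGTCA (in 4.46% of all windows), the E-box motif CACGTG (6.02%), the TATA motif TATAAA (12.4%) and the PU.1 type motif GAGGAAGT (2.44%) matched neither window shown.
Kcnj10, chr1:172340960-172341209, plus strand: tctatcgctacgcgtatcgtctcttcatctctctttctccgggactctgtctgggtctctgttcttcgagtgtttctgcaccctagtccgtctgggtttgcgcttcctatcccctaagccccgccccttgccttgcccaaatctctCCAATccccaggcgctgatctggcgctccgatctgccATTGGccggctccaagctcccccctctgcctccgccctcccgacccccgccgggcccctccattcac
Kcne3, first of 2 starts, chr7:100176420-100176669, plus strand: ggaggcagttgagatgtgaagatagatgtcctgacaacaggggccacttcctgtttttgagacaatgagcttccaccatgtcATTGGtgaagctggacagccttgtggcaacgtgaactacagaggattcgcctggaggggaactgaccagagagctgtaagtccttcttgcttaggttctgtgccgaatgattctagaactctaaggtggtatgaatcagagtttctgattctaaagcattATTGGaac
Both windows held 2 matches of CCAAT. They differed in base composition, with 62.0% G and C and 17 CG pairs for Kcnj10 against 46.8% and 3 for this start of Kcne3, where the median window had 52.4% and 6. The window of the other Kcne3 start had 58.0% and 10 and no match of CCAAT, so the contrast does not hold for both starts. A match is a description of the letters and says nothing of a factor.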

How the data were processed

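Total RNA of the 2 pools (25 ng each) was amplified from an oligo-dT primer and labelled, per the labels' protocols. Per the file headers, the deposited files hold unnormalized spot intensities in both dyes (mean signal, and median local background), and the log10 ratio of red over green of the scanner software (Feature Extraction 10.7.3.1 in the headers, whereas the submitters' processing notes name 10.5.1.1). The deposited value table holds the same log10 ratios turned to colon over blood, with a largest difference of 4.81e-08.

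With limma 3.58.1 (R 4.3.3), normexp with an offset of 50 was fitted to all spots, followed by a loess fit within arrays that gave weight 0 to outlier and control spots. Levels were set between arrays by Aquantile, which leaves ratios as they are. Array 2 was turned and averaged with array 1. Probes were named by RefSeq accession for 26055, by the file's name for 8652, and not at all for 4722. Of several probes of a gene the brightest gave its value. No spot was saturated. Members and gene lists were chosen with earlier results of these data known. Measured members were named, and unmeasured members were counted by family. Some genes are counted but not reported by name here. Of the other ion transport genes, the 4 highest called and all lower called were named. The arrays shared 1 slide and 1 scan, which leaves no batch to compare. The method was run on simulated arrays. These changed bright probes alone, set every background flag to pass and held no added dye effect. They therefore say nothing of dim members, of the background flag or of genes that follow the dye. Alternatives were an offset of 16, uncorrected background, the value table, the software's ratios, centring on the median, Aquantile, other rules for several probes, each array alone, other filters on dim probes, other fold limits and, added after the data were seen, names by accession.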

Additional observations from a re-analysis of the deposited data

How the results depend on the processing

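Every called member kept its sign under each alternative run. No paired analysis was possible because both arrays hold the same 2 pools. Of the 8 members higher and 1 lower, median centring left 5 higher, without Clcn5, Kcnk13 and Kcnn4, and 4 calls among the other ion transport genes in place of 10. The software's ratios and the deposited value table, which hold the same values, gave 20 higher (38.5%, against 20.2% of all genes) and 3 lower (5.77%, against 13.3%), with all 9 calls kept. An offset of 16 gave 11 higher (21.2%, against 17.2% of all measured genes), with Kcnj16, Kcnq1 and Kcns3 added. It gave 2 lower (3.85%, against 5.47%), with Kcnk12 added. Other fold limits change the counts by construction. At 1.5-fold 12 members were higher (23.1%, against 22.3%) and 2 lower (3.85%, against 11%), with 17 other ion transport genes called. At 4-fold 5 were higher (9.62%, against 6.09%) and 1 was lower (1.92%, against 0.829%), with 4 other ion transport genes called. Members measured were 133 without a filter on dim probes and 34 when both pools had to pass. The second rule left 7 higher (20.6%, against 12.9%), without Kcnj10, and 1 lower (2.94%, against 5.05%). Without a filter 8 were higher (6.02%, against 8.17%) and 1 was lower (0.752%, against 2.57%). Array 2 alone gave 8 higher (15.4%, against 15.3%) and array 1 alone gave 10 (19.2%, against 16.8%). Each gave 1 lower (1.92%, against 5.4% for array 2 and 5.48% for array 1). The mean over probes lost Kcnip3. Low signal over background limits the ratios of members seen in 1 pool alone. Apart from these constructions, the cause of the changes was not tested.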

Other observations

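Of the 46 members with 2 or more probes, 11 had 2 or more measured probes, and 8 of these pairs differed by less than 0.5 on the log2 scale. The widest gaps were 2.03 for Clic4, 0.94 for Trpv4 and 0.84 for the Kv1.6 gene Kcna6, whose probes read -0.08 and 0.75. No member had measured probes past 2-fold in opposite directions.

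Other ion transport genes, chosen here after their values were seen, also passed 2-fold on both arrays in the colon pool. They were the polycystin channel gene Pkd2 (1.66 ± 0.36), the potassium chloride cotransporter genes Slc12a4 (1.19 ± 0.14) and Slc12a7 (1.37 ± 0.15), the endosomal sodium/proton exchanger gene Slc9a9 (1.15 ± 0.10) and Mcoln1. The two-pore endolysosomal channel gene Tpcn1 (0.98 ± 0.12) and Lrrc8a (0.90 ± 0.02), a subunit of the volume-regulated anion channel, were not called.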
